A study of Mus musculus with 10 samples.

Results

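The genes described here lie within 1.5 Mb of mEC1, a conserved enhancer on mouse chromosome 5 that stands between Hmx1 and Cpz. A gene was included when it is annotated as protein-coding or lncRNA, overlaps chr5:34123357-37124110 (GRCm39) and has a row in the count table. By this rule 58 of the 53465 genes in the table were taken, of which 42 are protein-coding and 16 are lncRNA. The rule uses position and annotation and no measured value, and the neighbourhood was picked with earlier results of these data known. RNA-seq was performed on whole pinna prominences, the rudiments of the outer ear, micro-dissected from 5 wild-type (WT) and 5 mEC1dup/dup embryos at E14.5. mEC1dup/dup mice were made by CRISPR/Cas9 knock-in and carry 1 additional copy of mEC1 on each allele, and they are the KI samples of the labels. Both genotypes are on the C57BL/6J background, and no other allele or treatment is named for either. The comparison asks which genes of the neighbourhood change in RNA level when the enhancer is duplicated on both alleles.

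Enhancers are stretches of DNA that bind transcription factors and raise the transcription of a gene on the same chromosome, often across other sequence and sometimes past nearer genes. A single enhancer can act on several promoters or on one, and genes of the same neighbourhood need not share their enhancers. Hmx1 encodes a homeodomain transcription factor of the craniofacial mesenchyme, the sensory ganglia and the eye, and its loss in mice alters the position and shape of the outer ear.

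mEC1 spans 754 bp (chr5:35623357-35624110, GRCm39) and has a GC content of 51.1%. It is intergenic. The body of Hmx1 ends 66.3 kb away on the side of lower coordinates, and the body of Cpz begins 34.1 kb away on the other side. The primers that the study used to clone mEC1 matched the reference genome exactly at both of its ends. The 300 central bases, bases 228 to 527 of mEC1 on the plus strand, are shown as the middle of the element that the study cloned. The extent of the sequence inserted in mEC1dup/dup was not examined. Beside them stand the promoters of the genes on either side of mEC1 (250 bases before to 50 bases after the annotated start, each on the strand of its gene). Capitals mark matches to 4 short motifs searched on both strands, namely CAAGTG for HMX factors, TGACAG for MEIS factors, AACAAT for SOX factors and TGATNNAT for HOX-PBX pairs. The last was added after the sequence had been read.
mEC1 centre, chr5:35623584-35623883, plus strand: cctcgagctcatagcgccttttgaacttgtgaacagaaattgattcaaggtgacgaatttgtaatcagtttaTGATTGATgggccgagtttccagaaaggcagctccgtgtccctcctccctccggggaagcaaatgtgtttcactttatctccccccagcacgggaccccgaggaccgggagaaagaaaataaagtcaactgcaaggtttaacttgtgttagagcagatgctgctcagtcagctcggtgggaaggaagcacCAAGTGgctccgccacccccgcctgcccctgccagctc
Hmx1 promoter, chr5:35545933-35546232, plus strand: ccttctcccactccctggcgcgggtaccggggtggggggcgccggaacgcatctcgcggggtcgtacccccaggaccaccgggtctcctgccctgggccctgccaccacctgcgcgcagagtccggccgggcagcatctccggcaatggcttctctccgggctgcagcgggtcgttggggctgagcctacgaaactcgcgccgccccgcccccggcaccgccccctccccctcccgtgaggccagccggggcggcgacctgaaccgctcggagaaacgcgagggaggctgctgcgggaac
Cpz promoter, chr5:35683000-35683299, minus strand: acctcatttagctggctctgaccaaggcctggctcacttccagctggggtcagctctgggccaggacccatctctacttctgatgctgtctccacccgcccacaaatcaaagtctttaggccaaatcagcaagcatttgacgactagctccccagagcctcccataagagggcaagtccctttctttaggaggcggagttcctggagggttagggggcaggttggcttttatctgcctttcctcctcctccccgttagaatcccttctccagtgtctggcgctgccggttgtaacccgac

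Within the whole of mEC1 the HOX-PBX letters occur once, at chr5:35623656-35623663, and the HMX letters once, at chr5:35623846-35623851, while the MEIS and SOX letters were not found. None of the 4 motifs was found in the Hmx1 or Cpz promoter window. The Hmx1 window is rich in G and C (74.7%), and that of Cpz has 56.0%. Among the 58 genes, the promoter window held CAAGTG in 6 (10.3%, against 15.3% of 49353 annotated genes in the table), TGACAG in 11 (19.0%, against 9893 of 49353), AACAAT in 1 (1.72%, against 7149 of 49353) and TGATNNAT in 1 (1.72%, against 11.5%). The gene with TGATNNAT was Rgs12 and the gene with AACAAT was Mxd4.

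Each library held 17461544 to 18462073 counts. The whole-pinna origin was read from marker lists, and all 7 mesenchyme markers were tested, with a mean log2 CPM of 8.86 to 9.29 in WT and 8.85 to 9.20 in mEC1dup/dup. CPM is the count scaled to the library size with TMM normalization. Some properties of the libraries differed between the genotypes. Xist, the RNA of the inactive X chromosome, had 12812, 19040, 18165, 2096 and 0 counts in mEC1dup/dup replicates 1 to 5, and no WT library had more than 5. The sex of the embryos, which this RNA marks, and the genotype are therefore largely confounded in these libraries. The share of globin counts on embryonic globins was 21.3% ± 2.07 in WT and 34.3% ± 1.22 in mEC1dup/dup (SD, n = 5 each), without overlap, so that this share and the genotype cannot be told apart. Epithelial markers averaged 0.49 lower in log2 CPM and skeletal muscle markers 0.42 lower in mEC1dup/dup, with 3 of 6 and 2 of 10 called lower. The muscle mean rests largely on Ckm (-2.25) and Acta1 (-0.88), and the median log2 fold change of the list was -0.19. Both lists overlapped between genotypes, as did the cartilage markers, which stood at 8.98 to 9.65 in WT and 7.80 to 9.26 in mEC1dup/dup, lowest in mEC1dup/dup replicate 1, with 0 of 5 called. The part of these properties in the results was not tested, except where values without the libraries with Xist are given.

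Of the 58 genes, 40 passed edgeR's filter on low counts and were tested, all of them protein-coding. The other 18 are the coding genes Poln and Cfap99 and all 16 lncRNAs, and 9 of the 18 had no count in any library. A gene was called when its adjusted p (Benjamini-Hochberg, over all 16426 tested genes) was no more than 0.05 and its average log2 CPM no less than 1. In mEC1dup/dup pinnae 1 tested gene near mEC1 was called higher, Hmx1, and 1 was called lower, Htra3. Over all tested genes 2.64% were called, 0.834% higher and 1.81% lower. The same 2 genes passed on adjusted p alone, as did 2.77% of all tested genes. The log2 fold change was positive in 22 of the 40 genes and negative in 18. Its median over the 40 was 0.02, and that over all tested genes was -0.00. At an unadjusted p under 0.05 stood 6 of the 40, with 16.2% of all tested genes below that level. The genotypes did not overlap in 4 of the 40, as in 5.07% of all tested genes. These 4 were Hmx1 and Haus3, higher in all mEC1dup/dup libraries, and Htra3 and Psapl1, lower in all of them.

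**Figure D1:**
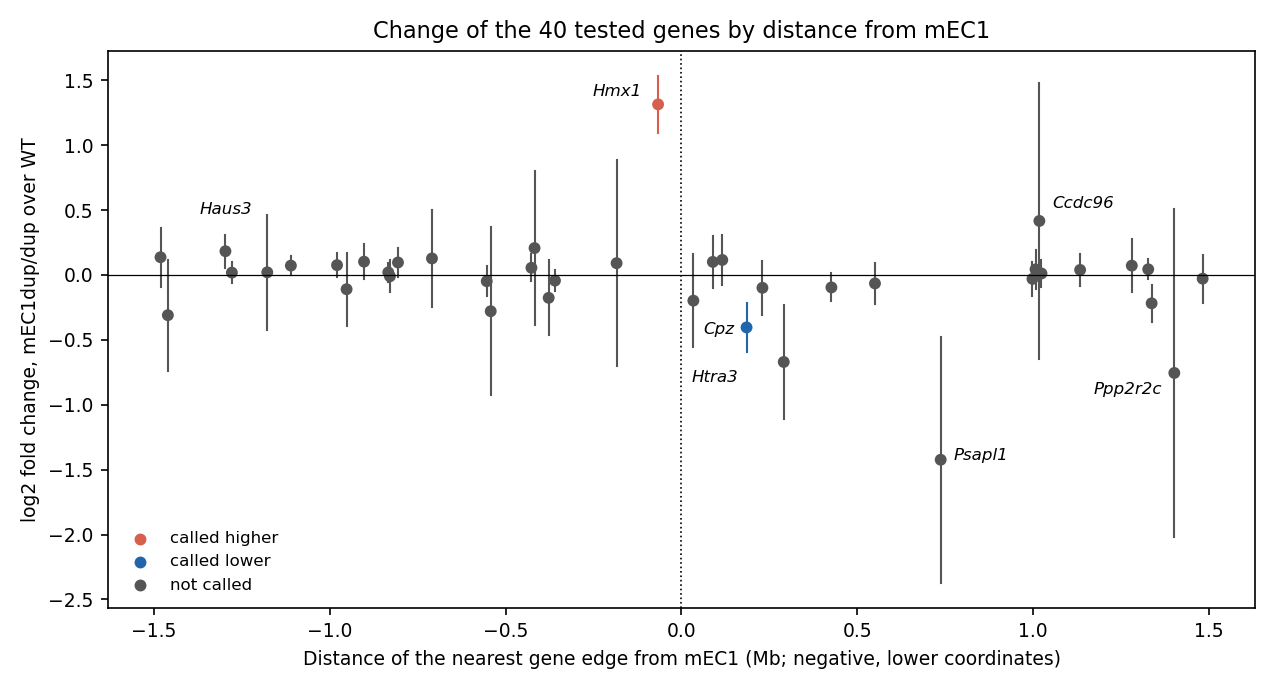
Log2 fold change (mEC1dup/dup over WT, vertical axis) of the 40 tested genes against the distance of their nearest edge from mEC1 in Mb, with 95% intervals as vertical lines and mEC1 as the dotted line. Hmx1 stands apart at 1.31, and Htra3 at -0.40 is the only gene called lower.

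Hmx1 (ENSMUSG00000067438, chr5:35546183-35557074, plus strand) had the largest increase among the 40 tested genes near mEC1. It stood at 21.7, 29.1, 26.5, 29.0 and 26.6 CPM in WT replicates 1 to 5 and at 77.5, 70.4, 63.3, 66.7 and 52.8 CPM in mEC1dup/dup replicates 1 to 5. The lowest mEC1dup/dup library, replicate 5, was thus above the highest WT library, replicate 2. The level rose 2.49-fold (95% interval 2.14 to 2.89; log2 fold change 1.31, SE 0.10, edgeR adjusted p = 0.000127). In bulk tissue, more cells with a transcript and more transcript per cell cannot be told apart. mEC1dup/dup replicate 5 is also the only library of its genotype with no Xist counts, and against the 5 WT libraries it alone gave a log2 fold change of 0.99 (SE 0.14, adjusted p = 0.279). The library kit did not mark strand, and 9.42% of the exon bases of Hmx1 are shared with antisense transcripts, so reads of the 2 strands cannot be told apart there.

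The promoter of Hmx1 faces that of E130018O15Rik (ENSMUSG00000055944, chr5:35536496-35545820, minus strand), an lncRNA transcribed in the opposite direction whose annotated start lies 363 bp from the start of Hmx1. Its counts were 1, 5, 5, 1 and 3 in the WT libraries and 8, 8, 6, 7 and 9 in the mEC1dup/dup libraries. All mEC1dup/dup libraries were above all WT libraries, at a level of a few reads. The sums of 15 and 38 counts give a ratio of 2.50 (exact 95% interval 1.34 to 4.90, for counting error only). A two-sided exact permutation test of its CPM gave p = 0.00794, the smallest that 5 libraries against 5 allow. The same test was run on each of the 9 untested genes with counts, and this p is the lowest of them and is not adjusted. E130018O15Rik had too few counts for the main test. When edgeR was run with no filter, its log2 fold change was 1.29 (SE 0.52, unadjusted p = 0.0216, adjusted p = 0.323), which does not pass the threshold. Among the 3784 untested genes with 20 or more counts, 1.51% had groups that did not overlap.

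Cpz encodes a secreted zinc carboxypeptidase that can bind Wnt proteins, and it is the nearest gene to mEC1 (ENSMUSG00000036596, chr5:35658166-35683049, minus strand). It stood at 11.4, 8.47, 6.29, 7.53 and 7.14 CPM in WT and at 5.37, 6.89, 7.22, 8.25 and 7.85 CPM in mEC1dup/dup. The groups overlapped, with the highest value in WT replicate 1 and the lowest in mEC1dup/dup replicate 1. The log2 fold change was -0.20 (95% interval -0.55 to 0.16, SE 0.16, adjusted p = 0.614). The interval ends at 1.12-fold higher, below the 2.14-fold at which the interval of Hmx1 begins.

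Further out on the same side, Trmt44, which encodes a tRNA methyltransferase, stood at 9.30 to 12.3 CPM in WT and 10.5 to 12.5 CPM in mEC1dup/dup (log2 fold change 0.10, 95% interval -0.10 to 0.30). Acox3, an acyl-CoA oxidase of peroxisomes, stood at 15.7 to 21.2 and 16.9 to 22.2 CPM (0.12, -0.08 to 0.31). Sh3tc1, a protein with SH3 and tetratricopeptide domains, stood at 9.13 to 10.4 and 7.83 to 10.5 CPM (-0.10, -0.31 to 0.11). The genotypes overlapped for each of these 3 genes, and none was called. On the side of Hmx1, the next coding gene is Adra2c, which encodes an alpha-2 adrenergic receptor. Its levels were low and scattered, at 1.44, 1.38, 0.730, 3.38 and 1.94 CPM in WT and 1.09, 1.54, 1.68, 3.13 and 2.00 CPM in mEC1dup/dup. The log2 fold change of Adra2c was 0.09 with an interval of -0.70 to 0.88, too wide to tell a 1.5-fold change in either direction from none. The lncRNAs 4930478P22Rik and 4931431C16Rik, also within 250 kb, had no count in any library.

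**Figure D2:**
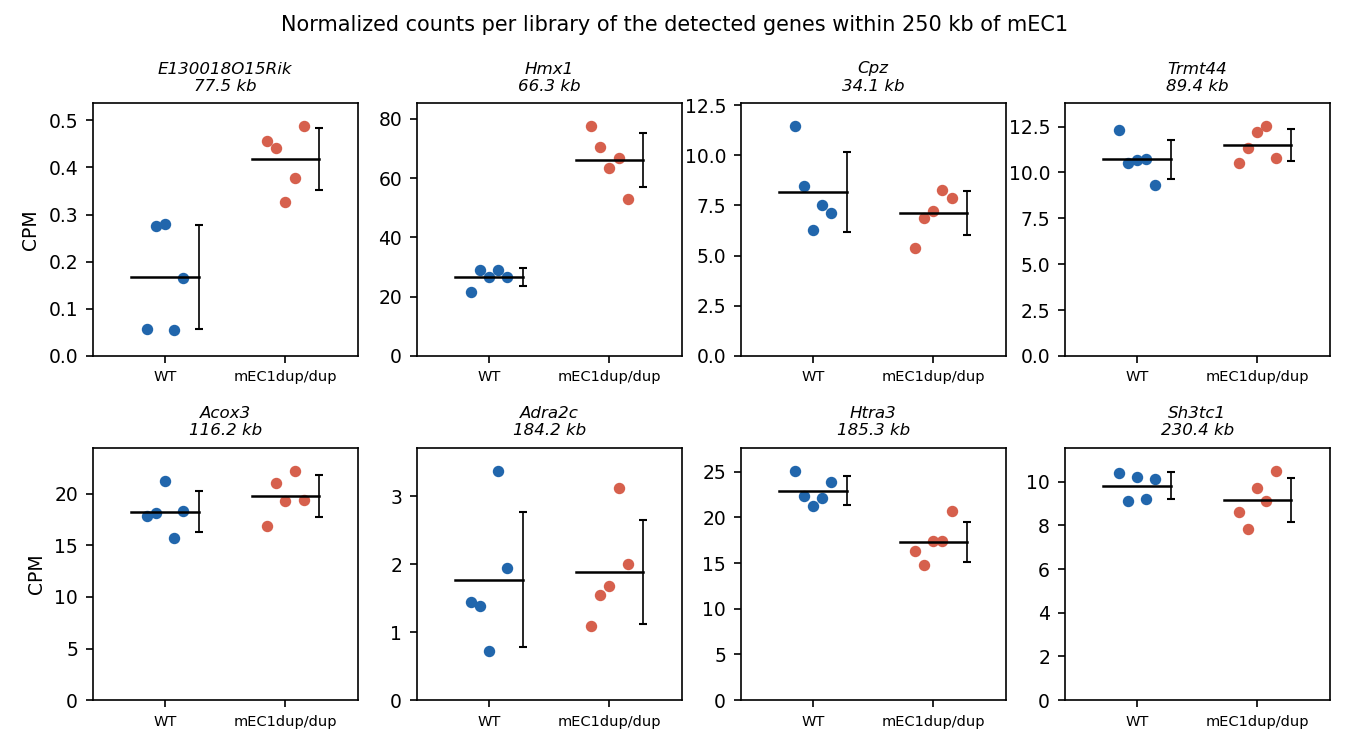
Normalized counts (CPM, vertical axes, each starting at 0) of the 8 genes with counts whose nearest edge lies within 250 kb of mEC1, 1 point per library, with the mean as a horizontal line and the SD as the error bar (n = 5 per genotype). The groups are apart in the panels of E130018O15Rik, Hmx1 and Htra3, while those of Cpz, Trmt44, Acox3, Adra2c and Sh3tc1 overlap.

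Whether Hmx1 changed more than each tested neighbour within 250 kb was asked directly, by the log2 ratio of Hmx1 to the neighbour in each library. This test was chosen after the data had been seen. The log2 ratio of Hmx1 to Cpz was 1.71 ± 0.455 in WT and 3.20 ± 0.410 in mEC1dup/dup (SD, n = 5 each), a rise of 1.49 with no overlap (two-sided exact permutation p = 0.00794, adjusted p over 6 neighbours 0.00952). Against Trmt44 the log2 ratio rose by 1.21, against Acox3 by 1.19, against Sh3tc1 by 1.41 and against Htra3 by 1.72, each with the same p and no overlap between genotypes. Against Adra2c it rose by 1.15, and the groups overlapped (exact permutation p = 0.0317 before and after adjustment). The same libraries of Hmx1 enter all 6 comparisons. As Hmx1 itself did not overlap between genotypes, a small p was likely against any neighbour that changed little, and the rise against Htra3 includes the fall of Htra3. Sex and genotype are largely confounded in these ratios too.

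Htra3 encodes a secreted serine protease of the HtrA family, and its body begins 185 kb from mEC1 on the side of Cpz (ENSMUSG00000029096, chr5:35809367-35837126, minus strand). It stood at 25.1, 22.3, 21.2, 22.2 and 23.9 CPM in WT and at 16.3, 14.8, 17.4, 17.4 and 20.7 CPM in mEC1dup/dup. All WT libraries were above all mEC1dup/dup libraries, and mEC1dup/dup replicate 5 came closest to WT. The level fell to 0.755 of that in WT (95% interval 0.664 to 0.859; log2 fold change -0.40, SE 0.09, edgeR adjusted p = 0.026). The call was lost when WT replicate 1, 2 or 5 or mEC1dup/dup replicate 2, 3 or 4 was left out, with adjusted p up to 0.0788, while the log2 fold change stayed between -0.48 and -0.35 whichever library was left out. When the level of Xist entered the fit, the log2 fold change of Htra3 was -0.18 (adjusted p = 0.653), and with mEC1dup/dup replicate 5 alone it was -0.14 (adjusted p = 0.872).

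Psapl1, a prosaposin-like gene 737 kb from mEC1, had the largest decrease among the 40 tested genes, with few counts. It stood at 1.098, 0.664, 1.07, 0.554 and 0.941 CPM in WT and at 0.114, 0.0551, 0.543, 0.432 and 0.433 CPM in mEC1dup/dup. The groups did not overlap, and the log2 fold change was -1.42 (95% interval -2.37 to -0.48, adjusted p = 0.110), which was not called.

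Among the roles of the neighbourhood, the secreted enzymes are Cpz, Htra3 and Hgfac. Of these 3, 1 was called lower, the Htra3 described above, beside 1.81% of all tested genes. Hgfac encodes the serine protease that activates hepatocyte growth factor. It was barely detected, at 0.561 to 0.867 CPM in WT and 0.543 to 1.21 CPM in mEC1dup/dup (log2 fold change 0.21, 95% interval -0.39 to 0.80).

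The 9 tested genes of receptors and signalling were called in neither direction, and their log2 fold changes ranged from -0.76 to 0.13. Lrpap1, a chaperone of the LDL receptor family, stood at 103 to 110 CPM in WT and 94.9 to 106 CPM in mEC1dup/dup. Rgs12, a GTPase-activating protein for G-protein alpha subunits, had a log2 fold change of 0.05 (95% interval -0.05 to 0.16). Sorcs2, a sorting receptor of the VPS10 family, had one of -0.07 (-0.22 to 0.09). Dok7, which activates the receptor kinase MuSK at the neuromuscular junction, stood at 9.63 to 15.6 CPM in WT and 8.79 to 11.9 CPM in mEC1dup/dup (-0.18, -0.47 to 0.11). Values were also close to 0 for the adaptor Sh3bp2 (0.10, -0.03 to 0.24), for Tnip2, an inhibitor of NF-kappaB signalling (-0.11, -0.39 to 0.17), and for the receptor kinase Grk4 (0.13, -0.25 to 0.50).

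Ppp2r2c, a brain-enriched regulatory subunit of protein phosphatase 2A, varied more between libraries than between genotypes. It stood at 7.11, 1.44, 2.58, 21.9 and 9.58 CPM in WT and at 2.23, 4.35, 2.93, 7.66 and 8.01 CPM in mEC1dup/dup (log2 fold change -0.76, 95% interval -2.02 to 0.51). WT replicate 4 was the highest library, and without it the log2 fold change was -0.04. Antisense transcripts share 48.2% of the exon bases of Ppp2r2c, so reads of either strand cannot be told apart there. The mean log2 CPM of 5 neuron markers was 4.30, 2.55, 1.96, 6.03 and 4.44 in WT and 3.05, 3.44, 3.36, 4.81 and 4.51 in mEC1dup/dup, again highest in WT replicate 4. Nat8l, the enzyme that makes N-acetylaspartate in neurons, was also highest in WT replicate 4, at 13.0 CPM against 6.20 to 9.24 CPM in the other WT libraries and 5.401 to 8.90 CPM in mEC1dup/dup (-0.31, -0.74 to 0.12). Without WT replicate 4 the log2 fold change of Nat8l was -0.12. The part of neuronal tissue in these 2 genes was not tested.

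The cytoskeleton genes Add1 and Afap1 were not called. Add1, the alpha subunit of adducin that links spectrin to actin, stood at 406 to 443 CPM in WT and 413 to 439 CPM in mEC1dup/dup. Its log2 fold change of 0.02 had an interval of -0.06 to 0.09. Afap1, an actin filament-associated adaptor, stood at 68.6 to 77.0 and 65.7 to 76.0 CPM (-0.10, -0.20 to 0.01).

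Of the 6 genes listed under chromatin and transcription, 5 were tested and none was called. Rnf4, a ubiquitin ligase that recognises SUMO chains, stood at 143 to 150 CPM in WT and 145.3 to 158 CPM in mEC1dup/dup (0.07, -0.00 to 0.14). Mxd4, a repressor that binds MAX, had a log2 fold change of 0.02 (-0.06 to 0.10), and Tada2b, an adaptor of the SAGA complex, one of 0.04 (-0.11 to 0.19). Msantd1 was near the detection limit at 0.609 to 1.12 and 0.433 to 1.14 CPM (-0.28, -0.93 to 0.37). Haus3, on this list but known as a subunit of the augmin complex of the mitotic spindle, stood at 17.51, 16.9, 16.4, 17.0 and 17.8 CPM in WT and at 20.3, 20.2, 19.3, 18.2 and 19.2 CPM in mEC1dup/dup. The genotypes did not overlap, yet the difference was small (0.18, 95% interval 0.06 to 0.31) and was not called (adjusted p = 0.125). Haus3 shares exons with Poln on the same strand, so counts may be divided between them, and the DNA polymerase gene Poln had 50 counts in all WT and 49 in all mEC1dup/dup libraries.

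The 9 tested genes of ribosome, mitochondrion, endoplasmic reticulum, lysosome and similar basic functions were called in neither direction. Man2b2, a lysosomal alpha-mannosidase, stood at 46.3, 41.3, 39.01, 35.8 and 40.6 CPM in WT and at 33.0, 33.1, 35.1, 37.4 and 35.8 CPM in mEC1dup/dup. The groups overlapped through WT replicate 4, and the log2 fold change of -0.22 (95% interval -0.36 to -0.07, adjusted p = 0.108) was called only when that library was left out (-0.26, adjusted p = 0.0343). Nop14, needed for making the small ribosomal subunit, had a log2 fold change of 0.10 (-0.01 to 0.21). Grpel1, a cofactor of mitochondrial protein import, had one of -0.03 (-0.16 to 0.10), and huntingtin (Htt) one of -0.05 (-0.16 to 0.07). Wolframin (Wfs1), an endoplasmic reticulum membrane protein, had one of -0.03 (-0.21 to 0.16), and Bloc1s4, a subunit of a lysosome-related organelle complex, one of 0.07 (-0.13 to 0.27).

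Levels can be compared between genes per kb of exon. Mrfap1, a nuclear protein, was the most abundant gene of the neighbourhood at 197 ± 6.70 CPM per kb in WT and 203 ± 6.12 in mEC1dup/dup (SD, n = 5 each), followed in WT by Add1 at 31.0 ± 1.13 and the transporter-like Mfsd10 at 22.5 ± 1.95. Hmx1 stood at 14.3 ± 1.62 CPM per kb in WT, below Nop14 at 15.4 ± 0.758 by less than the spread. In mEC1dup/dup it stood at 35.6 ± 4.91, next to Add1 at 31.4 ± 0.761 and above every other gene but Mrfap1. Cpz stood at 2.24 ± 0.545 and 1.95 ± 0.305 CPM per kb, and Htra3 at 4.39 ± 0.299 and 3.32 ± 0.417. Of the genes at an average log2 CPM of 5 or more, the log2 fold changes closest to 0 were those of Mfsd10 (-0.01), Tbc1d14 (0.01), Mxd4 (0.02), Add1 (0.02) and Grpel1 (-0.03).

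**Figure D3:**
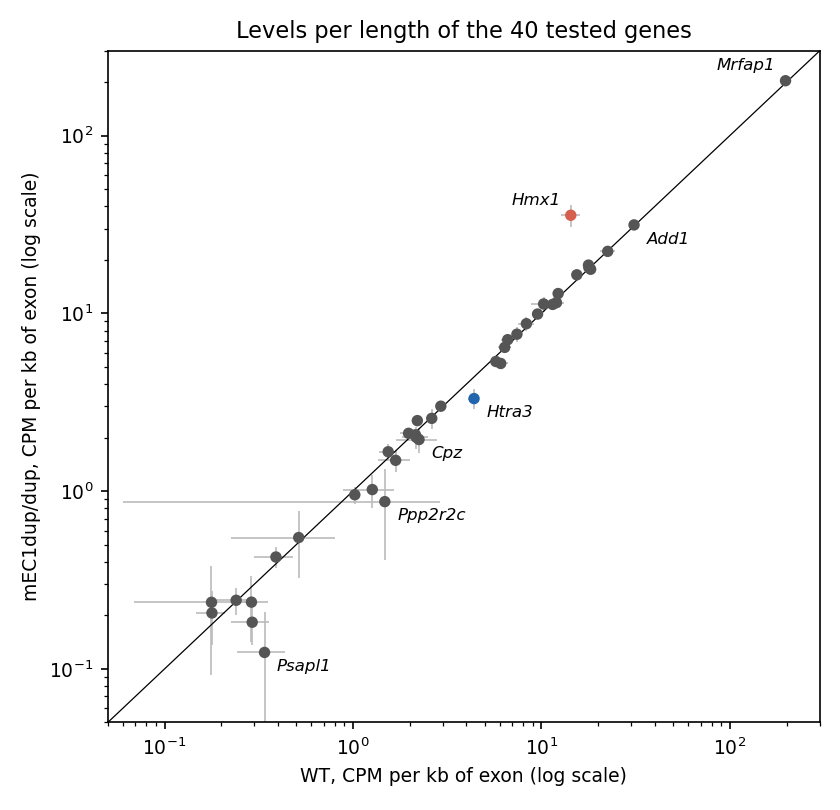
Mean CPM per kb of exon in WT (horizontal axis) and in mEC1dup/dup (vertical axis) for the 40 tested genes, on log scales, with the SD as grey bars (n = 5 per genotype) and the line of equality. Hmx1 moves from 14.3 to 35.6, and most other genes lie on or near the line from the lowest to Mrfap1 at 197 and 203.

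The change was also read by distance. The median size of the log2 fold change was 0.20 in the 3 tested genes within 100 kb, 0.11 in the 10 from 100 to 500 kb, 0.09 in the 12 from 500 to 1000 kb and 0.07 in the 15 from 1000 to 1500 kb, beside 0.09 over all tested genes. The first of these medians is the size of the uncalled change of Cpz, whose log2 fold change was -0.11 without mEC1dup/dup replicate 1 (and that of Trmt44 0.13), and -0.06 when the level of Xist entered the fit (Trmt44 0.04). Across the 40 genes, Spearman's rho of size with distance was -0.25 and Pearson's r -0.19, and without Hmx1 they were -0.20 and -0.05. The genes share all libraries and are not independent, and the size also followed the level (rho -0.65 with average log2 CPM). On the side of Hmx1, 1 of 21 tested genes was called (Hmx1), and on the side of Cpz 1 of 19 (Htra3). Over all tested genes the share called was 2.64%. On the side of Cpz, the 5 tested genes from 100 to 500 kb had a median log2 fold change of -0.10, with 1 of 5 positive (Acox3), and on the side of Hmx1 the corresponding 5 had one of 0.05, with 3 of 5 positive. Beyond the window, 0 of 32 tested coding or lncRNA genes from 1.5 to 3 Mb were called, and their median size was 0.07. At 2.64% called over all tested genes, so few genes can be expected to hold no call, so the 0 does not show a fall with distance.

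In the fit on genotype alone, the precision was enough to bound most of the tested genes. The 18 genes without a test, among them all 16 lncRNAs, were not bounded. When the level of Xist entered the fit, the SE was 0.26 for Cpz (0.16 without it) and 0.15 for Trmt44 (0.09 without it). The intervals below are those of the fit on genotype alone. In 30 of the 40 genes the 95% interval lay within a 1.5-fold change in either direction. Among the other 10 were Hmx1, Htra3, Psapl1, Ppp2r2c, Nat8l, Msantd1, Adra2c, Hgfac and Ccdc96. Apart from Hmx1, an increase of 1.5-fold lay within the interval for 3 genes, Adra2c, Hgfac and Ccdc96. The interval ended below the lower bound of Hmx1 in 38 of the 39 other genes, the exception being Ccdc96, a coiled-coil protein of cilia, at 0.277 to 1.27 CPM in WT and 0.171 to 1.56 CPM in mEC1dup/dup (log2 fold change 0.42, 95% interval -0.65 to 1.48, and 0.08 to 0.83 with 1 library left out).

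**Figure D4:**
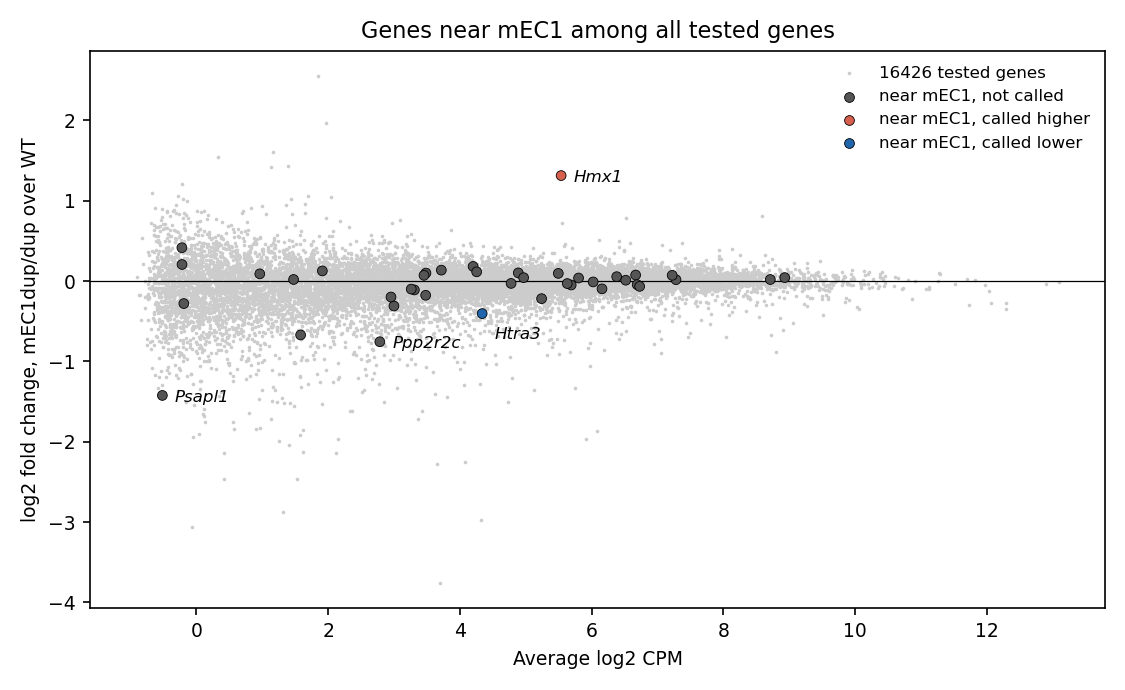
Log2 fold change (mEC1dup/dup over WT, vertical axis) against average log2 CPM (horizontal axis) for all 16426 tested genes in grey, with the 40 tested genes near mEC1 as large points. Hmx1 lies above the other genes of its level at 1.31, while the widest departures of the rest, such as Psapl1 at -1.42, are at low levels.

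Of the genes without a test, 9 had at least 1 count. Poln and the lncRNA 2210406O10Rik, with 34 and 26 counts in WT and mEC1dup/dup, were the most counted, and their groups overlapped. Cfap99, a cilia-associated gene, had 12 and 4 counts (ratio 0.329, exact 95% interval 0.0774 to 1.09). Outside the rule, a further 23 rows of other biotypes lie in the window. Of these, 3 unclassified transcripts were singled out after their values were seen. Inside the body of Hmx1 lie 4930442P19Rik (chr5:35548017-35549256, minus strand), with 101 counts in WT and 275 in mEC1dup/dup, and Gm43377 (chr5:35553442-35553896, plus strand), with 52 and 155. 4930442P19Rik was called higher although the genotypes overlapped (log2 fold change 1.42, SE 0.30, edgeR adjusted p = 0.0246). Gm43377 passed on adjusted p alone, at an average log2 CPM of 0.33, without overlap (1.54, SE 0.28, adjusted p = 0.0126). Reads of these transcripts and of the Hmx1 precursor RNA cannot be told apart. Gm43860 lies between Cpz and Trmt44 (chr5:35708604-35711308, minus strand). It had 96 counts in WT and 179 in mEC1dup/dup, with no overlap between genotypes (log2 fold change 0.87, SE 0.22, edgeR adjusted p = 0.0539), and was not called. Of the 17 homeobox and craniofacial factor genes listed beside Hmx1, which lie elsewhere in the genome, 1 was called higher and 0 lower. Over all tested genes these shares were 0.834% and 1.81%. The listed gene called higher was Pbx2, a partner of HOX and MEIS proteins, at 158 ± 5.75 CPM in WT and 175 ± 2.63 CPM in mEC1dup/dup (log2 fold change 0.14). The relatives of Hmx1, Hmx2 (0.18) and Hmx3 (0.01), which act in the inner ear, were not called.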

How the data were processed

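RNA-seq was performed on the whole pinna prominence of 5 WT and 5 mEC1dup/dup (KI) embryos at E14.5, with groups taken from the sample labels. The deposited values are raw counts per gene, which the authors obtained with fastp (trimming of read pairs), STAR (alignment to GRCm39) and featureCounts, and they were not normalized. The annotation release and the use of strand are not given in the sources used here. The kits named (NEBNext Ultra in the labels, TruSeq in the methods) do not mark strand. Of the 40 tested genes, 20 share exon bases with antisense transcripts, and their counts may hold reads of either strand. Among them are Ppp2r2c (48.2% of exon bases), Grpel1 (29.7%), Nicol1 (29.7%), Wfs1 (25.2%) and Tada2b (24.3%). Replicates were separate embryos, so p-values measure the spread between embryos. Ensembl identifiers were matched to GENCODE M39 (GRCm39), which placed 49355 of 53465 genes, and the unmatched genes held 0.111% of counts. Sequences were read from the GRCm39 genome.

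The whole table was filtered (filterByExpr), normalized by TMM and fitted with edgeR version 4.0.16 (glmQLFit, glmQLFTest; R version 4.3.3) on genotype alone, with Benjamini-Hochberg adjustment over all 16426 tested genes. The SE is the size of the log2 fold change divided by the square root of F. Intervals are 95%, from the t distribution of the fit, and intervals from counts cover counting error only. Reads carried no molecular identifiers. In simulated counts for this comparison, over 16426 genes, 100% of the changed genes were called, with 12 unchanged genes called. That share holds only for the expression levels and the size of difference put in. Recovery at other levels or of smaller differences was not tested. Exact permutation tests were two-sided over 252 arrangements.

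Genes were named by position (within 250 kb), by call, as the 5 largest remaining changes, the 3 highest levels per length, the 5 abundant genes closest to 0, and by role lists. The lists, the markers and the genes themselves were chosen with earlier results of these data known. The listed Fgfr3, Evc, Evc2, Nsd2, Nelfa, Crmp1, Jakmip1, Tacc3, Gpr78, Letm1 and Slbp were not among the genes the rule took. Alternatives were DESeq2 (version 1.42.0) size factors or test, upper quartile normalization, limma-voom (limma version 3.58.1), no filter or at least 10 counts in every library, other thresholds, windows and distances, a replicate block, Xist as a covariate, WT against the KI library without Xist, and each library left out in turn. Figures were drawn with matplotlib version 3.10.9. The values of 1 gene that the rule took are not reported here, though it is included in the counts over the 40 tested genes.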

Additional observations from a re-analysis of the deposited data

Results flagged for a closer look

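In 3 of 78 groups of 5 libraries (39 tested genes, 2 genotypes), 1 library stood apart from the other libraries of its genotype by Dixon's ratio of gap to range, and chance gives about 1 in 20. All 3 are WT libraries. Nicol1, a secreted cofactor 1481 kb from mEC1, was high in WT replicate 4, at 15.7 CPM against 11.3 to 12.1 CPM (ratio 0.789). Mfsd10 was low in the same library, at 55.6 CPM against 65.8 to 70.5 CPM (ratio 0.7101). Add1, alpha-adducin, was high in WT replicate 1, at 443 CPM against 406 to 416 CPM (ratio 0.737). Neither Hmx1, Cpz nor Htra3 had such a library.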

How the results depend on the processing

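Hmx1 was called higher under every alternative run except with mEC1dup/dup replicate 5, the library with no Xist counts, as the only one of its genotype. There its log2 fold change was 0.99 (adjusted p = 0.279), 0 genes near mEC1 were called higher and 0 lower, and 0 genes were called over the whole table. In that fit the lone library is assumed to vary like the WT libraries. With Xist as a covariate Hmx1 was 1.04 (adjusted p = 0.0171), 0 genes near mEC1 were called lower, and 3 genes were called over the whole table. At an adjusted p of at most 0.01, 0 were called lower. Leaving out 1 library at a time gave log2 fold changes of 1.25 to 1.38 for Hmx1 and -0.28 to -0.05 for Cpz, 1 call higher in each case, 0 to 2 calls lower, and a rho of size with distance of -0.30 to -0.17. That rho was -0.16 with the covariate and 0.00019 with mEC1dup/dup replicate 5 alone. Of all tested genes, 434 were called in the main comparison, 154 to 655 when 1 library was left out and 830 by DESeq2.

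With replicate number as a block, 2 genes near mEC1 were called lower, Htra3 among them, Hmx1 was 1.31 and 687 genes were called over the whole table. The numbers name different embryos. Deviations of same-numbered libraries correlated at -0.0558 to 0.345 (mean 0.162), so the pairing was not taken as given.

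Some log2 fold changes turned sign, all of them uncalled and most near 0 (in the main comparison Ppp2r2c was at -0.76 and Ccdc96 at 0.42), and the cause was not tested. With the Xist covariate these were Sh3tc1 (0.0728), Hgfac (-0.20), Grk4 (-0.0429), Grpel1 (0.11), D5Ertd579e (-0.0602), Zfyve28 (-0.00943), Mxd4 (-0.0179), Ppp2r2c (0.0713), Nicol1 (-0.0121) and Wfs1 (0.15). With mEC1dup/dup replicate 5 alone they were Sh3tc1 (0.0997), Dok7 (0.0226), Hgfac (-0.22), Mfsd10 (0.0183), Grpel1 (0.12), Ccdc96 (-0.0943), D5Ertd579e (-0.0675), Zfyve28 (-0.0563), Mxd4 (-0.00257), Nicol1 (-0.0675) and Wfs1 (0.22). With 1 library left out they were Adra2c (-0.17 to 0.46), Mfsd10 (-0.0658 to 0.0242), Tbc1d14 (-0.0180 to 0.0518), Zfyve28 (-0.0904 to 0.17), Mxd4 (-0.00309 to 0.0402) and Wfs1 (-0.0995 to 0.0175). Depth limits the 5 tested genes with a log2 CPM under 1.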
